A study of Mus musculus with 4 samples.

Results

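*Bnc1* and *Bnc2* encode the basonuclins, a pair of paralogous zinc-finger proteins, and their transcript levels were read in sorted palatal mesenchyme with and without *Foxf2*, a forkhead transcription factor gene. The 2 genes were taken by symbol from the 22096 gene symbols in the deposited tables. *Bnc1* was chosen by its FPKM in these same embryos, higher in *Foxf2*-/- than in both controls, and *Bnc2* because it is the paralogue of *Bnc1*. The levels of both genes are therefore given as a description, without a test.

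RNA was sequenced from 4 mouse embryos of a mixed background at embryonic day 13.5, when the palatal shelves grow beside the tongue. All 4 carried 1 *Osr2*RFP knock-in allele, and RFP+ cells, those in which the *Osr2* locus was active, were sorted from the dissected palatal shelves of each embryo. The groups were 2 *Foxf2*-/-*Osr2*RFP/+ embryos and 2 control littermates, 1 *Osr2*RFP/+ embryo that was wild type for *Foxf2* and 1 *Foxf2*+/-*Osr2*RFP/+ embryo. Each control genotype thus had no replicate, and a *Foxf2*-/- embryo lacked the gene in every tissue and not in the sorted cells alone. Levels are given in FPKM, the fragments assigned to a transcript divided by its length in kilobases and by the library's mapped fragments, and were summed over the entries of a gene symbol. Fold changes were taken on log2(FPKM + 0.1), a scale on which changes of low genes come out too small. The number of reads was unknown, but the libraries were of similar depth, between 1 and 1.19 times that of the *Osr2*RFP/+ library. *Foxf2* itself was at 85.4 FPKM in the *Osr2*RFP/+ embryo, 45.1 in the *Foxf2*+/- embryo, then 1.41 and 2.28 in the *Foxf2*-/- embryos (the mutants), in the order of the labelled genotypes. *Osr2*, the locus that drives the reporter, was between 129 and 147 FPKM in every embryo. Where a pair of values is given for the controls, the *Osr2*RFP/+ embryo comes first and the *Foxf2*+/- embryo second.

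Basonuclins carry paired C2H2 zinc fingers and are found in the nucleus. *Bnc1* is known from the proliferating basal layer of stratified epithelia, from mesothelium and from germ cells, and its protein has been linked to transcription of the ribosomal RNA genes by RNA polymerase I as well as to genes read by RNA polymerase II. *Bnc2* is the more widely expressed and more conserved gene, is known from mesenchyme and fibroblasts, and mice without it have a cleft palate, with reduced multiplication of craniofacial mesenchymal cells.

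In the deposited build, mm9, *Bnc1* lies on the minus strand at chr7:89111548-89137185, and its 1 entry is a transcript of 4663 bases in 5 exons, of which 2973 bases are coding. *Bnc2* also lies on the minus strand, at chr4:83918446-84320990, with a transcript of 6453 bases in 6 exons and 3099 coding bases. No other gene in the tables overlapped either locus, so no neighbour could share their reads whatever the strand. The coding sequences were identical at 1859 of 2816 aligned bases, or 66.0%. Their most similar coding stretch of 150 bases is shown because it is where reads of the paralogues would be hardest to tell apart. It runs from coding base 238 to 387 in *Bnc1* and from 274 to 423 in *Bnc2*, it is written 5′ to 3′ on the coding strand, and capitals mark the 30 bases that differ between the genes.
Bnc1: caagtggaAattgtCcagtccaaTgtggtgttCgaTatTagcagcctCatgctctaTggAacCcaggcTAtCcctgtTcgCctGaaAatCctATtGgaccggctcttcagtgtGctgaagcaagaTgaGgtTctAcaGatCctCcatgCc
Bnc2: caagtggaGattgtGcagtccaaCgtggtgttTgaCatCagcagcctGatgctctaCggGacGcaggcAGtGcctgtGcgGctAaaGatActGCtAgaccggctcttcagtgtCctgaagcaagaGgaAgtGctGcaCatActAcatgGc

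Even here the longest run of bases shared without a difference, which was also the longest shared anywhere between the 2 transcripts, was 17 bases (gaccggctcttcagtgt). All 4513 words of 31 bases in the *Bnc1* exons occurred once in the genome, as did 6248 of 6273 such words in the *Bnc2* exons, or 99.6%. A read of that length or longer from within a *Bnc1* exon therefore had 1 exact place in the genome, and the level of *Bnc1* and that of *Bnc2* were measured on separate sequence.

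The promoters are shown because the comparison is between embryos with and without a transcription factor. Each is the 250 bases before the start of the deposited transcript, read from the mm9 genome on the minus strand and written 5′ to 3′, at chr7:89137186-89137435 for *Bnc1* and chr4:84320991-84321240 for *Bnc2*. Capitals mark the CpG dinucleotides.
Bnc1: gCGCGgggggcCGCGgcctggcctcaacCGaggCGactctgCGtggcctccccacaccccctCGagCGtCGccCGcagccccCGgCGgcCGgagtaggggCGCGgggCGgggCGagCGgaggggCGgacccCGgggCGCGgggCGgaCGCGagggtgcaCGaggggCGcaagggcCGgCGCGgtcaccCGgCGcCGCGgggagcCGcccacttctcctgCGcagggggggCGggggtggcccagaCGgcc
Bnc2: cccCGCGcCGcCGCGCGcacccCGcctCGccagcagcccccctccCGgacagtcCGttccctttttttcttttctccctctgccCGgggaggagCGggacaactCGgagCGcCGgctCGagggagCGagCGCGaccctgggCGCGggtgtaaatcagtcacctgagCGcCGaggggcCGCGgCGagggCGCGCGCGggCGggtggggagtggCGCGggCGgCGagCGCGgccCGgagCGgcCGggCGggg

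Both promoters were rich in CpG. The *Bnc1* promoter held 39 CpG and the *Bnc2* promoter 41, against a median of 11 over 21184 promoters of the same length, and 97.6% and 98.3% of promoters held fewer. Their GC content was 83.6% and 78.0%, against a median of 56.4%. The forkhead core TAAACA, searched on both strands, was in 10.3% of all promoters and was not in the *Bnc1* or the *Bnc2* window. A related core, CAAACA (also on both strands), which shares all but its first letter with the former, was in 13.7% of all promoters and also in neither window. That says only that these letters are not in these 250 bases, and nothing of where Foxf2 binds.

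*Bnc1* was at 0.998 FPKM in the *Osr2*RFP/+ embryo, 1.68 in the *Foxf2*+/- embryo, then 5.92 and 5.63 in the mutants. The mutants were thus both above both controls and close to each other, and the *Foxf2*+/- embryo lay between the *Osr2*RFP/+ embryo and the mutants. In terms of level, *Bnc1* stood above only 1.33% of the 11154 genes tested in the *Osr2*RFP/+ embryo and above 9.14% in the *Foxf2*+/- embryo, against 45.8% and 42.0% in the mutants. A gene was tested when it had an entry of at least 200 bases and a mean of at least 1 FPKM over the 4 embryos. Within that range, the transcript stood at the bottom in the *Osr2*RFP/+ embryo and near the middle in the mutants. The range leaves out 6017 genes with an FPKM above 0 in an embryo but a mean under 1 FPKM. A value near 1 FPKM therefore falls at the bottom through the filter, and the ranks do not cover all genes detected. The deposited coverage, the mean read depth over the transcript before scaling for library size, was 1.36 and 2.71 in the controls, against 8.23 and 8.74 in the mutants, so the control values rest on fewer reads than those of the mutants.

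The mean of *Bnc1* was 1.34 ± 0.482 FPKM over the controls, against 5.78 ± 0.203 in the mutants (SD, n = 2 each). The log2 difference of the mutants from the controls was 2.07 (SE 0.228 from limma), or 4.20-fold. It was 2.42, or 5.35-fold, from the *Osr2*RFP/+ embryo and 1.72, or 3.30-fold, from the *Foxf2*+/- embryo. By this difference *Bnc1* ranked 8 among the 11154 genes, from the highest down. *Bnc1* was chosen by this difference, so it is no independent evidence. In this comparison 80 genes, 0.717% of those tested, were more than 1.5-fold above both controls and 76, or 0.681%, more than 1.5-fold below both, and *Bnc1* is 1 of the 80. After rescaling by median ratios the split was 92 above and 51 below.

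*Bnc1* in the *Foxf2*+/- embryo was 0.70 above the *Osr2*RFP/+ embryo on the log2 scale, or 1.62-fold. Over the 4227 genes with a mean of 1 to 5 FPKM, the SD of the same difference was 0.364, and that of the difference between the 2 mutants was 0.369. The difference between the 2 mutants in *Bnc1* was -0.07. In order of level, the 2 *Foxf2*-/- embryos therefore did not differ beyond this spread. The step from the *Osr2*RFP/+ embryo to the *Foxf2*+/- embryo compared single embryos and has no replicate check. It was 0.288 of the whole log2 distance between the *Osr2*RFP/+ embryo and the mutants.

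*Bnc2* was an abundant transcript in every embryo, at 52.9 FPKM in the *Osr2*RFP/+ embryo, 44.6 in the *Foxf2*+/- embryo, then 44.1 and 44.3 in the mutants. The *Osr2*RFP/+ embryo was the highest and the other three lay within 1 FPKM of each other. Its level was above that of 93.0% to 94.2% of the genes tested in each embryo, and its coverage was between 61.3 and 72.0. The mean of *Bnc2* was 48.8 ± 5.85 FPKM over the controls, against 44.2 ± 0.173 in the mutants (SD, n = 2 each). The log2 difference was -0.14 (SE 0.103 from limma), or 0.910-fold, where the median of all genes tested was -0.08. It was -0.26 from the *Osr2*RFP/+ embryo and -0.01 from the *Foxf2*+/- embryo, and the latter turned to 0.04 after rescaling by median ratios. *Bnc2* was past the 1.5-fold limit against neither control. In *Bnc2* the 2 controls differed from each other by -0.24, more than the mutants differed from the *Foxf2*+/- embryo.

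**Figure D1:**
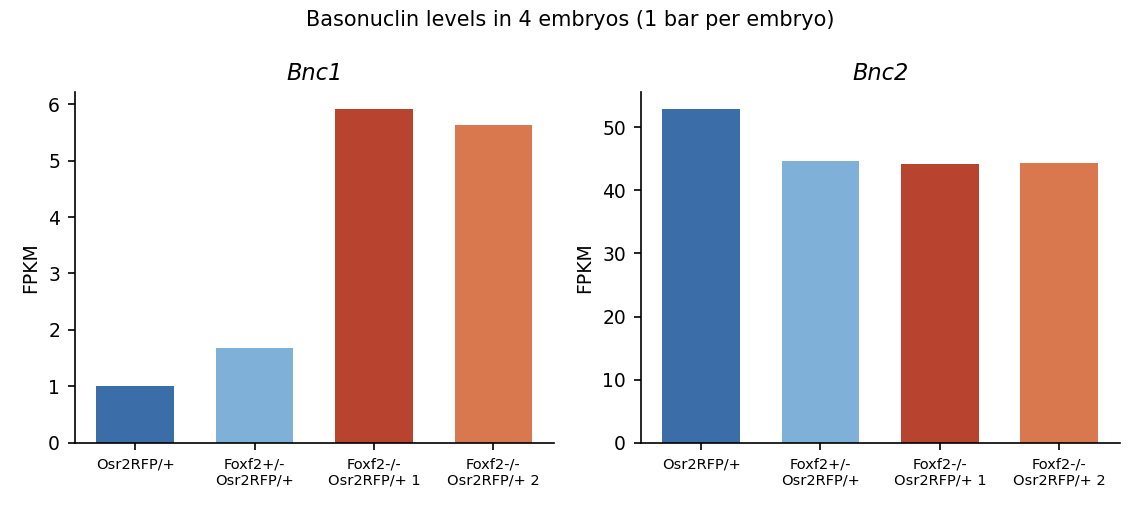
FPKM of *Bnc1* (left) and *Bnc2* (right) in each of the 4 embryos, 1 bar per embryo, with separate axes from 0. *Bnc1* is at 0.998 and 1.68 in the controls, against 5.92 and 5.63 in the mutants, whereas *Bnc2* lies between 44.1 and 52.9 throughout.

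Side by side, on FPKM, which is scaled for transcript length, *Bnc2* was the higher of the pair in every embryo. The ratio of *Bnc2* to *Bnc1* was 53.0 in the *Osr2*RFP/+ embryo, 26.6 in the *Foxf2*+/- embryo, then 7.45 and 7.87 in the mutants. *Bnc1* made up 1.85% and 3.62% of the summed basonuclin FPKM in the controls, against 11.8% and 11.3% in the mutants. The sum itself was 53.9 and 46.3 in the controls and 50.0 in each mutant, so the mutant sums lay between those of the 2 controls. The higher *Bnc1* level thus changed the make-up of the basonuclin transcripts, and most of them were from *Bnc2* in all 4 embryos.

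**Figure D2:**
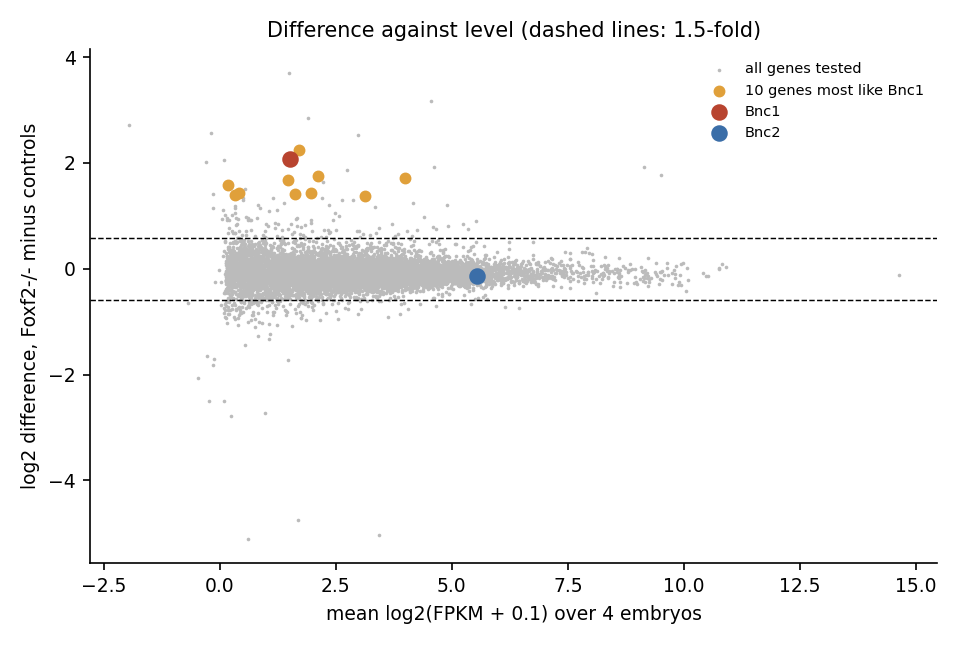
Log2 difference of the *Foxf2*-/- embryos from the controls (vertical axis) against the mean log2(FPKM + 0.1) over the 4 embryos (horizontal axis) for the 11154 genes tested, 1 point per gene, with dashed lines at 1.5-fold. *Bnc1* lies at 2.07 among low transcripts, and *Bnc2* at -0.14 among abundant ones.

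The sort could hold cells of other types, and bulk values cannot tell fewer cells of a type from less RNA per cell. Because *Bnc1* is known from epithelium, markers of epithelium were read in each embryo. The 30 genes on the epithelial list summed to 16.9 FPKM in the *Osr2*RFP/+ embryo, 19.0 in the *Foxf2*+/- embryo, then 18.7 and 22.6 in the mutants. The groups overlapped, and the highest mutant sum was 1.34 times the lowest control sum, against 4.20-fold for *Bnc1*. Of these genes, 21 were under 1 FPKM in every embryo and the highest value was 3.11. Of the 7 that were tested, 0 were past 1.5-fold against both controls, and both mutants were above both controls in 1 and below both in 0, with a median log2 difference of -0.03. Over all genes tested, 9.89% had both mutants above both controls and 35.8% both below.

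Defining epithelial markers were low in all embryos. *Krt5*, a keratin of the basal layer, was at 0.334 and 0.577 FPKM in the controls, against 0.605 and 0.541 in the mutants. *Krt14*, its partner keratin, was at 0.915 and 2.02 in the controls, against 1.16 and 1.58 in the mutants. For both keratins the groups overlapped. *Trp63*, the transcription factor gene of basal epithelial cells, was at 0.827 and 0.564 in the controls, against 0.843 and 1.07 in the mutants. *Epcam*, a surface protein of epithelial cells, was at 1.03 and 0.987 in the controls, against 0.901 and 1.69 in the mutants. *Cdh1*, which encodes E-cadherin, was at 0.255 and 0.231 in the controls, against 0.331 and 0.715 in the mutants. *Trp63* and *Cdh1* were above both controls in both mutants, *Trp63* by little in the first of them.

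Over the whole epithelial list, with the 23 genes under the level filter included, a count chosen after seeing the data, 11 of 30 genes had both mutants above both controls and 1, *Rab25*, had both below. Over all 17171 genes with an FPKM above 0 in an embryo these shares were 11.9% above and 28.8% below. Among the genes with a mean under 1 FPKM alone, 10 of the 23 epithelial genes were above and 1 below, against 15.6% and 15.9% of the 6017 such genes, and rescaling by median ratios gave 11 above and 1 below, against 18.5% and 13.7%. The genes above both controls included *Krt15*, *Cdh1*, *Trp63*, *Sfn*, *Esrp1*, *Shh*, *Lamb3*, *Dsp* and *Cldn6*. *Shh* was near the floor, at 0.0414 and 0.119 FPKM in the controls, against 0.261 and 0.126 in the mutants. In whole palatal shelves of *Foxf2*-/- embryos, the paper reports *Shh* as lost or reduced in anterior and posterior epithelium. Values from cells sorted for *Osr2* do not measure that epithelium. *Dsp*, which encodes the desmosomal protein desmoplakin and is named after its values were seen, was at 0.248 and 0.427 FPKM in the controls, against 0.905 and 0.670 in the mutants. Low epithelial transcripts were thus more often higher than lower in the mutants, together with *Bnc1*, while the summed level of the list overlapped between the groups. Their part in the level of *Bnc1* was not tested.

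The other cell types in which *Bnc1* is known were nearly absent. Of 10 mesothelial genes, 9 were under 1 FPKM in every embryo, *Upk3b* was at no more than 0.0636 and *Wt1* at no more than 0.0240. The one measured mesothelial gene, *Rspo1*, which encodes a secreted Wnt co-agonist, was at 20.2 and 14.8 FPKM in the controls, against 12.2 and 14.0 in the mutants (limma adjusted p = 0.349). The 10 germ cell genes summed to 0.996 and 0.789 FPKM in the controls, against 0.969 and 1.44 in the mutants, and *Ddx4*, an RNA helicase gene of germ cells, was between 0.0436 and 0.165.

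Markers of further cell types moved in several ways. The 8 endothelial genes summed to 0.533 and 0.946 FPKM in the controls, against 1.05 and 1.97 in the mutants, all of them under 1 FPKM in every embryo. The 8 blood and macrophage genes summed to 16.9 and 24.5 in the controls, against 18.8 and 27.2 in the mutants. The 8 skeletal muscle genes summed to 2.18 and 2.50 in the controls, against 1.28 and 1.15 in the mutants. Endothelial sums were thus higher and muscle sums lower in both mutants than in both controls, whereas the blood sums overlapped. The 8 neural and glial genes summed to 3.91 and 7.69 in the controls, against 6.34 and 6.75 in the mutants. With genes of any level counted, 3 of the 8 endothelial genes (37.5%) had both mutants above both controls and 0 below. Of the 8 muscle genes, 4 (50.0%) had both below and 0 above, and 5 were under 0.1 FPKM in every embryo. Of these 5, *Myog* was at 0 FPKM in all 4 embryos. Over all 17171 genes with an FPKM above 0 in an embryo, 11.9% were above and 28.8% below. Among those with a mean under 1 FPKM, 15.6% were above and 15.9% below. Few genes on these lists reached the level filter, with 0 endothelial, 6 blood, 1 muscle and 2 neural genes tested. The part of these cells in the level of *Bnc1* was not tested. The 16 genes on the palatal mesenchyme list, in contrast, summed to between 716 and 765 FPKM in each embryo, and 3 of the 15 tested (20%, against 9.89% of all genes) were above both controls in both mutants and 7 (46.7%, against 35.8%) below both, with a median log2 difference of -0.07. After rescaling by median ratios, 4 were above and 3 below, against 21.0% and 21.6% of all genes, and the median was 0.01.

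**Figure D3:**
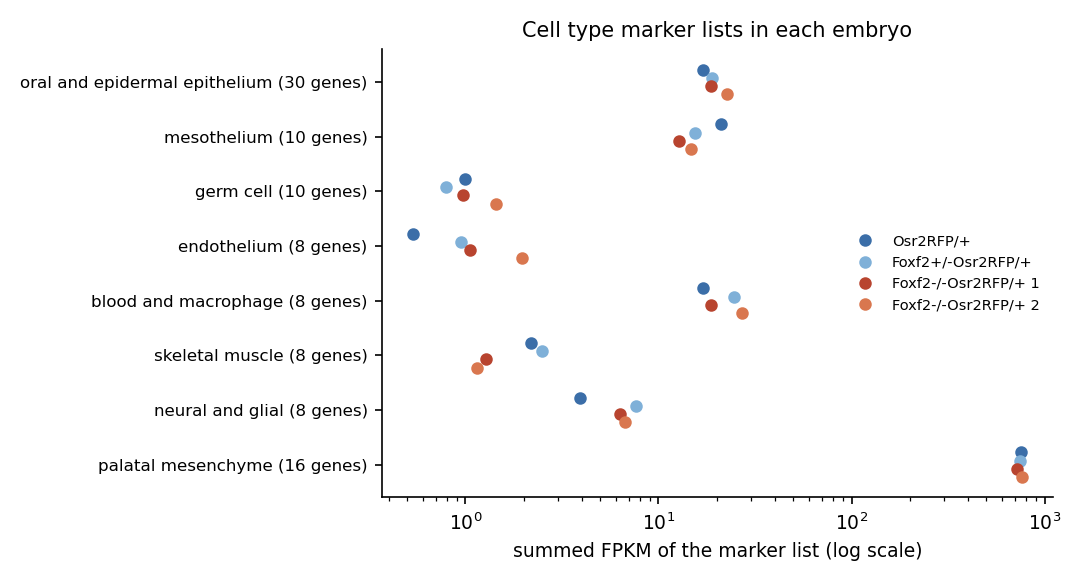
Summed FPKM of 8 cell type marker lists (rows) on a log axis, 1 point per embryo. The palatal mesenchyme list lies between 716 and 765 in all 4 embryos, the epithelial list between 16.9 and 22.6 with the groups overlapping, and the germ cell and endothelial lists below 2.

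To see whether the chromosomal surroundings of *Bnc1* differed as well, its neighbours within 500 kb were read. Of 13 such genes 6 were tested, their log2 differences lay between -0.14 and 0.20, and none was past 1.5-fold against both controls. limma with Benjamini-Hochberg adjustment called 0 of the 6, with a lowest adjusted p of 0.425, where it called 6 genes higher (0.0538%) and 1 lower (0.00897%) over all genes, and 0 of the 6 had an unadjusted p under 0.05, against 13.0% of all genes. The nearest tested neighbour, *Hdgfrp3*, a gene of the hepatoma-derived growth factor family 32.2 kb from *Bnc1*, was at 14.6 and 13.4 FPKM in the controls, against 15.9 and 16.1 in the mutants. It was the only 1 of the 6 with both mutants above both controls, and *Btbd1*, at 8.69 and 8.80 in the controls, against 7.90 and 7.95 in the mutants, the only 1 with both below.

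The other 4 tested neighbours of *Bnc1* had mutant and control values that overlapped. They were *Homer2*, a synaptic scaffold gene, with a log2 difference of -0.03, *Fam103a1* with -0.03, *3110040N11Rik* with -0.13, and *Sh3gl3*, an endophilin gene, with 0.09. Over the 12 neighbours with an entry of at least 200 bases, whatever their level, a count chosen after seeing the data, 5 had both mutants above both controls and 1 below. The shares were 11.9% and 28.8% over all genes with an FPKM above 0 in an embryo. That set leaves out the neighbour *BC048679*, which was at 0 FPKM in every embryo. After rescaling, the neighbour counts were 6 and 0, against 20.1% and 18.8% of that set. Of the 5 neighbours with an FPKM above 0 in an embryo but a mean under 1 FPKM, 4 were above, *Ap3b2*, *Fsd2*, *Tm6sf1* and *Adamtsl3*, where 15.6% of all such genes were. The highest of them, *Adamtsl3*, a matrix protein gene 347 kb away, was at 0.576 and 0.755 FPKM in the controls, against 1.03 and 1.17 in the mutants. The nearest of them, *Tm6sf1*, 82.6 kb away, was at 0.240 and 0.262 FPKM in the controls, against 0.307 and 0.325 in the mutants. *Ap3b2* was at 0 and 0 FPKM in the controls, against 0.0126 and 0.0112 in the mutants. *Fsd2* was at 0.0238 and 0.0716 in the controls, against 0.0937 and 0.135 in the mutants. Both of these genes were near the floor. *Bnc2* had 2 neighbours within 500 kb. *Cntln*, a centrosomal protein gene, was at 17.4 and 15.6 FPKM in the controls, against 13.2 and 11.5 in the mutants, a log2 difference of -0.42 (limma adjusted p = 0.267). The other, *4930473A06Rik*, had a log2 difference of 0.07 with overlapping values, and limma called 0 of the 2, of which 1 had an unadjusted p under 0.05.

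**Figure D4:**
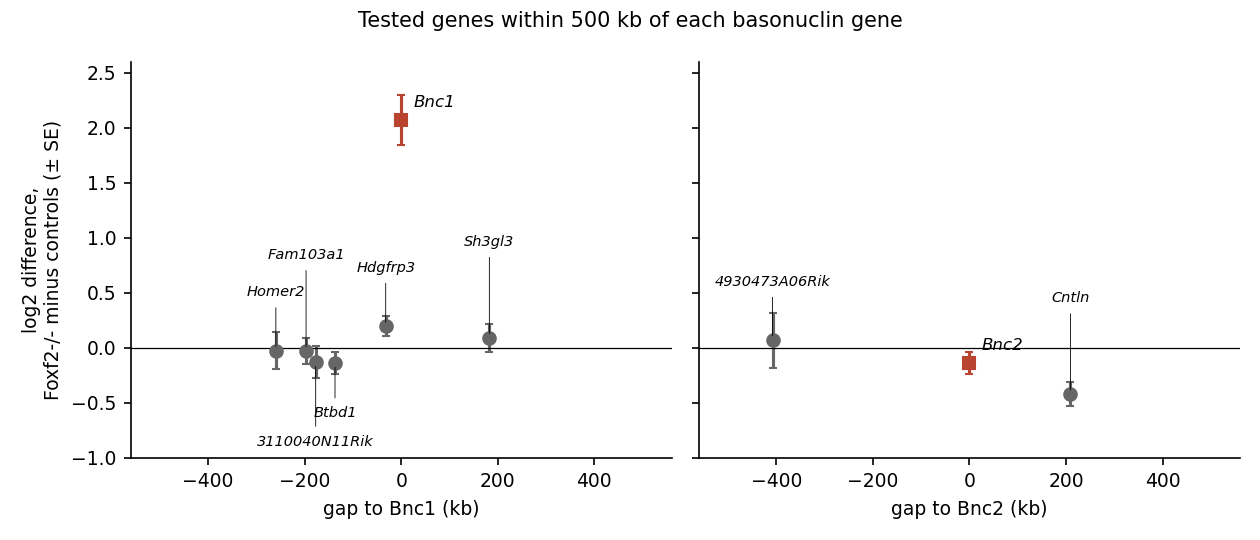
Log2 difference of the *Foxf2*-/- embryos from the controls, with the limma SE, against the gap in kb to *Bnc1* (left) or *Bnc2* (right), negative towards lower coordinates. Squares are the basonuclin genes and circles their tested neighbours. The 6 neighbours of *Bnc1* lie between -0.14 and 0.20, with *Bnc1* at 2.07.

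Genes whose profile over the 4 embryos was most like that of *Bnc1* were found by the root mean square distance between log2(FPKM + 0.1) profiles, each centred on its own mean. They resemble *Bnc1* in the contrast that chose it, so they are named as a description. The nearest was *Car12*, a membrane carbonic anhydrase gene, at a distance of 0.161, with 0.942 and 2.04 FPKM in the controls, against 6.74 and 7.24 in the mutants. *Tbx15*, a T-box transcription factor gene, followed at 0.206, with 7.49 and 10.0 in the controls, against 30.0 and 27.4 in the mutants. *Corin*, a gene for a serine protease that activates atrial natriuretic peptide, came next at 0.268, with 2.19 and 2.35 in the controls, against 7.82 and 7.92 in the mutants. In *Car12* and *Tbx15*, as in *Bnc1*, the *Foxf2*+/- embryo stood above the *Osr2*RFP/+ embryo, whereas in *Corin* the controls were close.

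The remaining 7 lay at distances from 0.328 to 0.411. They were *Irak3*, an inhibitor of Toll-like receptor signalling, *Elfn1* and *Lrrtm4*, which encode leucine-rich repeat membrane proteins, *Kirrel3*, an adhesion molecule of the immunoglobulin superfamily, *9430076C15Rik*, *Creb5*, a bZIP transcription factor gene, and *Shisa3*. RefSeq has since listed *9430076C15Rik* as a synonym of *Creb5*, so the 2 entries, which the tables place apart on chromosome 6, may not be separate genes. Their log2 differences ran from 1.38 for *Creb5* to 1.68 for *Shisa3*. In *Shisa3* the mutants differed most, with 3.62 and 6.56 FPKM. In all, 17 genes lay within a distance of 0.5 of *Bnc1*, where the median over the genes tested was 1.11.

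**Figure D5:**
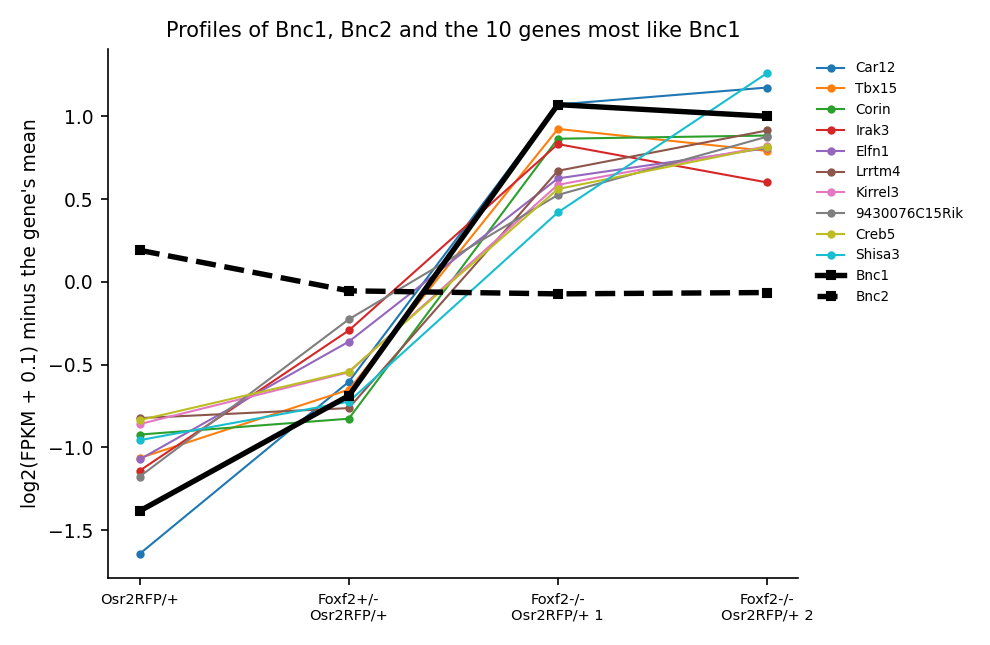
Log2(FPKM + 0.1) of each gene minus its own mean (vertical axis) in the 4 embryos (horizontal axis) for *Bnc1* (solid black), *Bnc2* (dashed black) and the 10 genes most like *Bnc1* (colours), with lines only joining the points of a gene. All 11 upper profiles are higher in both *Foxf2*-/- embryos than in both controls, and *Bnc2* is nearly flat.

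The profile of *Bnc2* was shared by many genes. Its 5 nearest were *Pdia3*, *Mterfd1*, *Vps26a*, *Pdia6* and *Glb1l*, at distances from 0.0062 to 0.012, and 510 genes lay within 0.05. *Pdia3* and *Pdia6* encode protein disulfide isomerases of the endoplasmic reticulum, and *Vps26a* a retromer subunit. *Pdia3*, the nearest, was at 128 FPKM in the *Osr2*RFP/+ embryo, 107 in the *Foxf2*+/- embryo, then 106 and 107 in the mutants, with the *Osr2*RFP/+ embryo highest, as for *Bnc2*.

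Processes for which basonuclins are known were then read by gene list, as counts and medians beside those of all genes. Of 23 genes of RNA polymerase I and ribosomal RNA synthesis, all tested, 0 were past 1.5-fold against both controls in either direction. In 16 of them, or 69.6%, both mutants were below both controls, against 35.8% of all genes, and in 0 both were above. The median log2 difference was -0.16, against -0.08 over all genes. After rescaling by median ratios, an alternative chosen after seeing the data, the count was 12 of 23 against 21.6% of all genes, and the median -0.08 against -0.00. The differences were thus small, and most of the list lay on the lower side under both scalings.

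Mitosis genes were read because basonuclins are known from dividing cells. Of 22, 0 were past 1.5-fold, both mutants were below both controls in 12 (54.5%, against 35.8% of all genes) and above in 1, and the median was -0.11. After rescaling 3 were below (13.6%, against 21.6%) and 2 above, with a median of -0.03. The lower side of this list thus depended on the scaling between libraries.

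Among 86 developmental C2H2 zinc-finger factors, the wider class to which basonuclins belong, 55 were tested, and 15 (27.3%, against 9.89% of all genes) had both mutants above and 14 (25.5%, against 35.8%) below both controls, with a median of -0.00. After rescaling 21 were above and 9 below, against 21.0% and 21.6% of all genes, with a median of 0.08. *Glis3*, a Krüppel-like zinc-finger gene, was more than 1.5-fold above both controls, with 2.33 and 2.64 FPKM in the controls, against 4.03 and 4.71 in the mutants (log2 difference 0.79, limma adjusted p = 0.157). Its relative *Glis1* was more than 1.5-fold below both, with 3.03 and 1.86 in the controls, against 0.714 and 1.55 in the mutants (log2 difference -1.10, limma adjusted p = 0.322). Neither passed limma.

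Fibroblast matrix genes were read because *Bnc2* is known from fibroblasts. Of 24 tested, 0 were past 1.5-fold against both controls, and the median log2 difference was 0.12, against -0.08 over all genes. Both mutants were above both controls in 9 (37.5%, against 9.89% of all genes) and below both in 4 (16.7%, against 35.8%). After rescaling 13 were above and 3 below, against 21.0% and 21.6% of all genes. The rescaled median was 0.20. The summed FPKM of the list overlapped between the groups, at 2447 and 1992 in the controls, against 2074 and 2230 in the mutants. *Col12a1*, a fibril-associated collagen gene named here after its values were seen, was at 10.6 and 11.0 FPKM in the controls, against 16.5 and 16.0 in the mutants, and had the lowest limma adjusted p of any listed gene, 0.109. *Tnc*, also named after its values were seen, went the other way. It was at 63.8 and 44.3 FPKM in the controls, against 35.4 and 31.7 in the mutants. Its log2 difference was -0.67, against 0.59 for *Col12a1*. Over the 154 genes tested from all 12 lists, limma called 0, and 34, or 22.1%, had an unadjusted p under 0.05, against 13.0% of all genes. The 1.5-fold limit was passed by 1 of the 154 upwards, *Glis3*, against 0.717% of all genes. It was passed by 2 downwards, against 0.681% of all genes, *Glis1* and *Tnnt1*, a troponin gene of slow skeletal muscle. So few genes say nothing of the lists as a whole. *Tnnt1* was at 1.31 and 1.58 FPKM in the controls, against 0.831 and 0.752 in the mutants (limma adjusted p = 0.299).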

How the data were processed

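The authors mapped single-end reads to mm9 with Bowtie (0.12.7 per the labels) and Tophat. The deposited tables, 1 per embryo, hold FPKM and coverage (an unscaled signal) for 28107 RefSeq entries. The program and version behind the FPKM are not given in the sources used here. The deposited tables hold no interval per value and no counts, and whole reads could not be recovered from the coverage. Each control genotype and the *Foxf2*-/- group are embryos, so SDs measure the spread between animals, and in the controls also between genotypes.

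FPKM was summed by symbol, and 10 symbols with a failed estimate were left out. limma 3.58.1 (R 4.3.3) with a variance trend was fitted to log2(FPKM + 0.1) of 11154 genes, 2 *Foxf2*-/- against 2 control embryos, with Benjamini-Hochberg adjustment and a threshold of 0.05. The script was tested on simulated data. Sequences were read from the mm9 genome and its annotation with Python 3.11.15 and Biopython 1.88. Named genes were the basonuclins, *Foxf2*, *Osr2*, listed genes past a limit, defining markers, tested neighbours within 500 kb, and the 10 and 5 genes most like *Bnc1* and *Bnc2*. The members, lists and tests were chosen with earlier results of these data known. Alternatives varied the pseudocount, scaling, summing, filter, limit, design and embryos.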

Additional observations from a re-analysis of the deposited data

How the results depend on the processing

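The log2 difference of *Bnc1* from the controls was 1.55 with a pseudocount of 1 and between 1.72 and 2.42 when 1 embryo was left out. It was above 0 under all 9 alternatives. That sign is no independent evidence, because *Bnc1* was chosen by this difference. With both mutants above both controls, leaving out an embryo or changing the pseudocount could not turn it. The log2 difference of *Bnc2* lay between -0.26 and -0.01 when 1 embryo was left out. Its difference from the *Foxf2*+/- embryo turned to 0.039 after rescaling by median ratios and to 0.030 after scaling to the upper quartile. The number of genes more than 1.5-fold above both controls was 42 with a pseudocount of 1, 27 with a mean of at least 5 FPKM, 345 without a level filter, and 21 at 2-fold, and those below were 25, 9, 294 and 15. With 1 embryo left out they were between 68 and 214 above and between 90 and 358 below, with the highest counts without the *Foxf2*+/- embryo. Leaving out either control meant that a gene had to differ from 1 control only. The share above among such genes was 51.3% in the main analysis. It was 64.3% and 62.3% after rescaling by median ratios and to the upper quartile. With a mean of at least 5 FPKM it was 75%, and without a level filter 54.0%. It was 62.7% with a pseudocount of 1, 47.6% with a pseudocount of 0.01 and 45.7% with the highest entry per symbol. Leaving out the *Foxf2*+/- embryo gave 37.4%, and leaving out the *Osr2*RFP/+ embryo 45.5%. Without the first and second *Foxf2*-/- embryo it was 57.7% and 28.3%. The direction of this share thus depended on single embryos and on the processing. limma called 7 genes, and 13 with a pseudocount of 1, 12 with upper quartile scaling, 1 with the highest entry per symbol, 26 with a filter of 5 FPKM in any embryo, 20 with a mean per genotype, and 15 with *Foxf2* null alleles as a linear term. It called 0 without a level filter and 0 without a variance trend, where 1777 and 1264 genes had an unadjusted p under 0.05. Between 7 and 38 genes were called with 1 embryo left out, 38 without the *Foxf2*+/- embryo, where the single sample of a group is assumed to vary like the others. The cause of the other changes was not tested. After rescaling, 3 of the 22 mitosis genes were below both controls. With a mean of at least 5 FPKM *Bnc1* was not among the genes tested. No paired analysis was possible because the 2 controls are of different genotypes and the labels match no *Foxf2*-/- embryo to a control. The unknown read depth limits low values, *Bnc1* in the controls included.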
